A study of Homo sapiens with 18 samples.

Results

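GFP high Raji cells were compared between 48 and 72 h. Raji is a human Burkitt lymphoma line, a B cell tumour with germinal centre features, and the series was made in such cells with an auxin-inducible degron on SMARCA4 (BRG1), an ATPase of the BAF chromatin remodelling complex. The comparison was defined by the sample labels and was chosen with earlier results of these data known. It used 6 of the 18 libraries of the series, 3 of GFP high cells at 48 h and 3 of GFP high cells at 72 h. GFP low cells at 48 and 72 h (3 libraries each) and GFP high cells at 24 h (3 libraries) served for comparison. Every group carries the genotype label Smarca4+/+ and the same line and system. The labels do not state what GFP reports, the event from which the hours run, which cells received auxin or whether the line is 1 clone. One library set has column names that join GFP to BRG1. In what follows, 3 values in a row are the unnumbered set, set 1 and set 2, in that order. Nothing in the labels ties the 3 libraries of a group to separate cultures, and p-values therefore reflect only how far these libraries spread, which may be a technical spread.

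Several gene programs recur in the results. Cholesterol and unsaturated fatty acid synthesis are switched on by the SREBP transcription factors, which INSIG1 holds in the endoplasmic reticulum when sterols are plentiful. The integrated stress response works through ATF4, whose translation rises when eIF2 is phosphorylated, and whose targets make serine, glycine and other amino acids and charge tRNAs. Replication histone genes lie in clusters, are transcribed in S phase and mostly end in a stem-loop in place of a poly(A) tail. The mitochondrial genome encodes subunits of the respiratory chain and 2 ribosomal RNAs, all transcribed as long precursors. In germinal centre B cells, light zone genes follow CD40, antigen receptor and NF-kB signalling, and PRDM1 opens the plasma cell program.

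Between 48 and 72 h the changes were small and numerous. Lipid synthesis, the ATF4 program and replication histones rose, and mRNAs of the mitochondrial genome, S phase genes and MHC class II genes fell. Of 16474 genes tested, 4587 (27.8%) passed an adjusted p of 0.05 in edgeR's quasi-likelihood test, 2251 (13.7%) higher and 2336 (14.2%) lower at 72 h. The median size of a called change was 0.20 on the log2 scale, and the median change of all genes was 0.01. A change of 2-fold or more was rare, with 67 such genes higher (0.407%) and 124 lower (0.753%). Among the 8506 genes whose mean was 10 CPM or more (counts scaled to a common library total), 42.0% were called, 21.8% higher and 20.2% lower. The 3 libraries at 72 h lay wholly above those at 48 h for 3325 genes tested (20.2%) and wholly below for 3287. All list counts below are read against these shares.

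**Figure D1:**
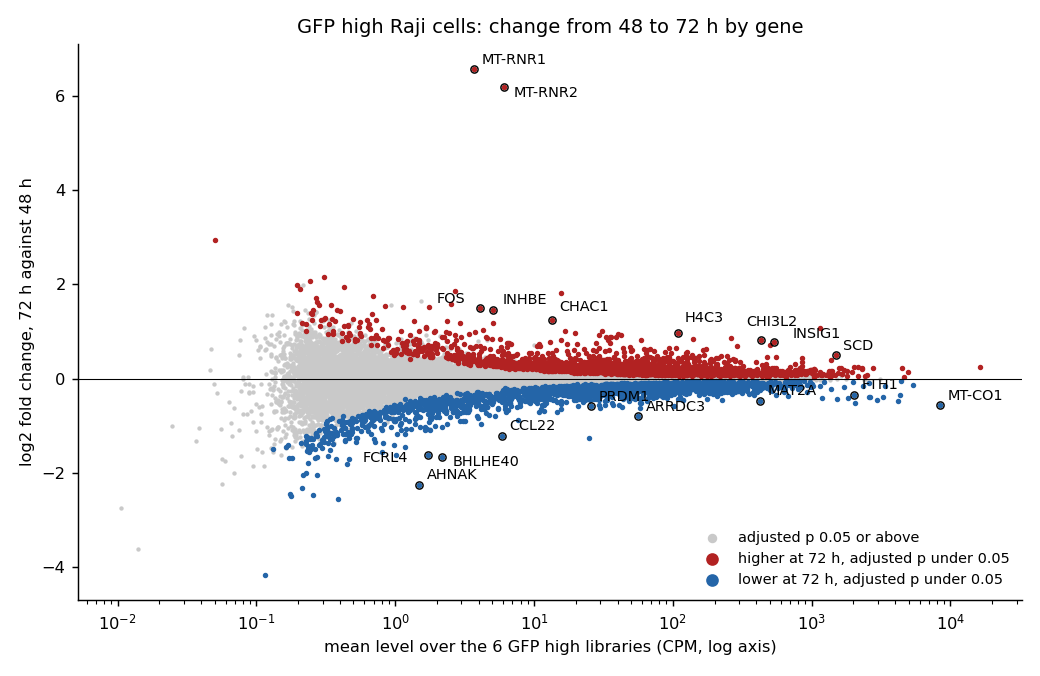
Each point is 1 of the genes tested, with its mean level in the 6 GFP high libraries (CPM, log axis) against its log2 change from 48 to 72 h. Called genes are coloured, MT-RNR1 (6.56) and MT-RNR2 lie above every other gene, and the labelled FOS (1.49) and AHNAK (-2.25) stand out from genes of their level in a cloud whose median is 0.01.

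The 6 libraries held 28660713 to 51820226 counts, and all 18 held 27257876 to 55419458. In a principal component analysis of the 6, the first component (36.9% of variance) separated the times and the second (23.3%) set set 1 apart. Marker lists were summed as CPM of the library total: the 6 B cell markers came to 2438 to 2523 at 48 h and 2524 to 2591 at 72 h. The 7 myeloid markers came to 0.837 to 1.02 and 0.521 to 0.754, with FCGR3A and S100A8 at 0, and the 6 erythroid markers to 0.445 to 0.539 and 0.328 to 0.392, with HBA1, ALAS2 and AHSP among those at 0. The 8 epithelial, kidney or fibroblast markers came to 4.77 to 5.58 and 3.08 to 3.38, with KRT18, KRT19, COL1A2 and COL3A1 at 0. The 7 T cell markers came to 27.2 to 28.2 and 27.5 to 29.7, with CD8A at 0. Some members of these lists had counts in every library. TRBC2 had 604 to 1085 counts a library at 48 h and 721 to 1209 at 72 h, and CD3D, CD3E, CD3G and TRAC were also present. COL1A1 had 104 to 167 and then 65 to 133 counts, and DCN 38 to 61 and then 35 to 40. HBB had 13 to 26 and then 12 to 17 counts, and ITGAM 12 to 23 and then 7 to 13. Counts from ribosomal RNA, nuclear and mitochondrial together, made up 0.0322% ± 0.0026 and 0.0298% ± 0.0054 of each library (SD, n = 3), and protein-coding genes 97.1% and 97.2%. In bulk RNA, fewer cells of a state and less RNA per cell cannot be told apart.

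Cholesterol synthesis rose almost as a whole. Of 24 genes of the pathway tested, 23 were higher at 72 h and none was lower, against 13.7% and 14.2% of all genes, with a median log2 change of 0.38. Their summed level went from 3244 to 3270 CPM at 48 h to 4455 to 4467 CPM at 72 h, with no overlap. PMVK, a kinase of the mevalonate pathway, was the member not called, with a log2 change of 0.06 ± 0.06 (SE).

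INSIG1 (ENSG00000186480.13, hg38 chr7:155297776-155310235), the sterol-dependent anchor of SREBP and itself an SREBP target, had the largest change of the list. Its level was 401, 392 and 394 CPM at 48 h and 684, 691 and 662 CPM at 72 h. The 2 times did not overlap, and the log2 change was 0.78 ± 0.02 (SE, adjusted p = 7.9e-17). HMGCS1, which makes HMG-CoA, went from 390, 379 and 372 CPM to 631, 620 and 616 CPM, a log2 change of 0.71 ± 0.02 (adjusted p = 3.5e-15), although 37.7% of its exon bases are shared with other annotated genes. The late enzymes FDFT1 (0.49) and HSD17B7 (0.58), the thiolase ACAT2 (0.49) and the sterol carrier STARD4 (0.55) rose as well. The regulator SREBF2 rose by 0.16. Genes of sterol efflux, the opposing arm run by LXR, showed no like shift: 1 of 7 was higher, none was lower and the median was 0.02.

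Fatty acid synthesis moved the same way, with 8 of 10 genes higher, none lower and a median of 0.26. SCD (chr10:100347233-100364826), which puts the first double bond into saturated fatty acids, was at 1243, 1245 and 1250 CPM at 48 h and at 1760, 1750 and 1761 CPM at 72 h, with no overlap. Its log2 change was 0.50 ± 0.01 (adjusted p = 7.9e-17). FADS1, a further desaturase, rose by 0.61, the elongase ELOVL6 by 0.51, the regulator SREBF1 by 0.38 and ACLY, which supplies cytosolic acetyl-CoA, by 0.28. FADS2 had a log2 change of 0.11 ± 0.12 and was not called. In the 24 h before, in a comparison that shares the 48 h libraries, 13 of the 24 cholesterol genes were higher and 1 lower with a median of 0.08, and the fatty acid list had a median of 0.09.

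Because these genes moved together, their promoters were searched for 8 short motifs in the 250 bases before the RefSeq transcription start (GRCh38.p14), on both strands. The CCAAT box, the site of NF-Y, a partner of SREBP, was in 16 of 18 promoters of the cholesterol list that had an entry (88.9%), in 43.1% of 9209 promoters of tested protein-coding genes and in 37.0% of all 27305 genes with an entry. It was also in 19 of 21 promoters of the unfolded protein response list (90.5%) and 11 of 12 of the MHC class II list (91.7%), lists in which 8 of 21 and 1 of 15 genes tested were higher. A core of the sterol response element, TCACNCCA, was in 3 of 18 (16.7%) and in 3.79% of the tested protein-coding genes. It was in 0 of 9 promoters of the fatty acid list. Its share was much the same in the B cell transcription factor list (3 of 20, 15%) and the immediate early list (3 of 19, 15.8%). Counts this small cannot tell whether it was particular to lipid genes. A match is a description and not a binding site. The windows of HSD17B7 and SCD are given with CCAAT, or ATTGG on the other strand, in capitals, since they lie fully outside the deposited gene bounds.
HSD17B7 (chr1:162790452-162790701, plus strand): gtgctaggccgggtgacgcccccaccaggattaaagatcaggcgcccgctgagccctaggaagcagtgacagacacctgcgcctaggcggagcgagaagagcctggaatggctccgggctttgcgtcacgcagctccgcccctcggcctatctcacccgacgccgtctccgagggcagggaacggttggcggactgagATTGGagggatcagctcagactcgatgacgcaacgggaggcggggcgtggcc
SCD (chr10:100346983-100347232, plus strand): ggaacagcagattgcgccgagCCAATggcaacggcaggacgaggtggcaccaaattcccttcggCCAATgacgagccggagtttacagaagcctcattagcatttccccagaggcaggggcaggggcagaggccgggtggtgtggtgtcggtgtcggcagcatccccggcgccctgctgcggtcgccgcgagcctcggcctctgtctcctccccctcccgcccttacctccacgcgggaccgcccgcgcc
The window of HSD17B7 holds 1 match and that of SCD holds 2.

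The ATF4 program rose too. Of 27 genes of the integrated stress response list tested, 22 were higher, none was lower and the median log2 change was 0.46. ATF4 (ENSG00000128272.17, chr22:39519695-39522683) was at 466, 465 and 474 CPM at 48 h and at 646, 640 and 649 CPM at 72 h. The times did not overlap, and its log2 change was 0.46 ± 0.02 (adjusted p = 3.7e-12).

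Among its known targets, PSAT1, an enzyme of serine synthesis (chr9:78297125-78330093), went from 194, 184 and 182 CPM to 340, 340 and 336 CPM, a log2 change of 0.86 ± 0.03 (adjusted p = 1.1e-14). PHGDH, the first enzyme of the same pathway, rose by 0.63, MTHFD2 of mitochondrial folate metabolism by 0.45 and PCK2, which makes phosphoenolpyruvate in mitochondria, by 0.95. CHAC1, which breaks down glutathione, was at 7.59, 7.88 and 8.47 CPM and then at 18.5, 19.0 and 19.8 CPM, a log2 change of 1.25 ± 0.08 (adjusted p = 2.8e-10). Every library at 72 h was above every library at 48 h for these 5 genes.

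Feedback and stress genes of the list rose too. SESN2 and DDIT4, inhibitors of mTORC1, rose by 0.93 and 0.92, with DDIT4 at 28.6, 29.7 and 29.4 CPM and then 55.2, 55.8 and 55.3 CPM. INHBE, a secreted TGF-beta family member that is not on the list, rose from 2.97, 2.81 and 2.41 CPM to 7.70, 7.12 and 7.58 CPM (1.46 ± 0.11). TRIB3, an inhibitor of ATF4 signalling, rose by 0.57, CEBPB by 0.78 and ATF3 by 0.73. DDIT3 (CHOP), the death-linked member, was not called: 11.8, 13.2 and 13.7 CPM became 15.1, 13.3 and 13.8 CPM, overlapping values with a log2 change of 0.12 ± 0.07 (adjusted p = 0.236), and 39.6% of its exon bases are shared with other genes. SLC3A2, part of the cystine and leucine carriers, was not called either (-0.03 ± 0.03).

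Cytosolic aminoacyl-tRNA synthetases, many of them ATF4 targets, had 14 of 20 genes higher, none lower and a median of 0.15. GARS1, the glycine enzyme, had the smallest p of the list, going from 723, 721 and 720 CPM to 981, 989 and 976 CPM (0.44 ± 0.01, adjusted p = 3.2e-15). WARS1, the tryptophan enzyme, had the largest change, from 225, 221 and 223 CPM to 361, 362 and 360 CPM (0.70 ± 0.02). SARS1 rose by 0.60 and CARS1 by 0.57. The unfolded protein response list, the other branches of endoplasmic reticulum stress, had 8 of 21 genes higher (5 without the unnumbered set), 2 lower and a median of 0.06, and the p53 list, which shares SESN2 and CDKN1A with the stress programs, 7 of 21 higher and 2 lower.

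The composite element of ATF4 was searched as TGATGNAA on both strands. It was in 4 of 23 promoters of the integrated stress response list (17.4%), in 3 of 16 of the synthetase list (18.8%), in 2.23% of tested protein-coding genes and in 3.89% of all genes. Like shares were found in the BCL2 family list (2 of 12, 16.7%) and the B cell transcription factor list (3 of 20, 15%). Among the remaining lists the highest share was 1 of 12 (8.33%), in the MHC class II and plasma cell lists. Counts this small cannot tell whether the element was particular to the ATF4 lists. The windows of PSAT1 and SESN2 are shown because they are 2 strongly risen targets whose windows lie outside the deposited gene bounds. CCAAT and ATTGG are in capitals.
PSAT1 (chr9:78296875-78297124, plus strand): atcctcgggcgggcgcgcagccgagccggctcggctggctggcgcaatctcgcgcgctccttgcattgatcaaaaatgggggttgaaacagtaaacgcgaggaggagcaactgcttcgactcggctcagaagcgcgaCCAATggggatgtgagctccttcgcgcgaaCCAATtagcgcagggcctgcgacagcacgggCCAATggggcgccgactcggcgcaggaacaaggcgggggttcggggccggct
SESN2 (chr1:28259268-28259517, plus strand): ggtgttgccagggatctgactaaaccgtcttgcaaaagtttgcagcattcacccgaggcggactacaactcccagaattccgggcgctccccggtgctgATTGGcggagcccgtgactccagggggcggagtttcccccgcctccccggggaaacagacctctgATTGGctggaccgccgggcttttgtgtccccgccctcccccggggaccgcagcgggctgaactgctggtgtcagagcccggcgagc
PSAT1 has 3 CCAAT matches and SESN2 has 2, and neither window holds TGATGNAA.

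**Figure D2:**
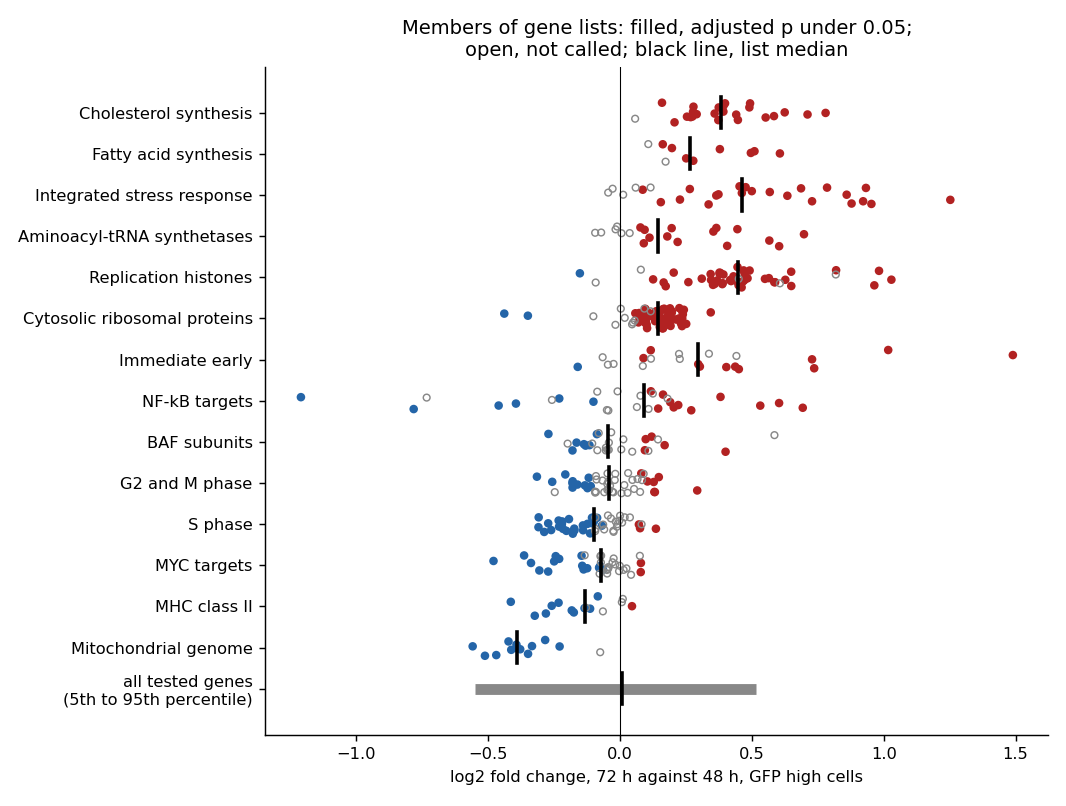
Each point is the log2 change from 48 to 72 h in GFP high cells of 1 gene of a list, with the list's median as a black bar. The bottom strip gives the median (0.01) and the 5th to 95th percentile of all genes tested (-0.55 to 0.51). Medians of the cholesterol (0.38), stress response (0.46) and histone (0.45) lists lie to the right of that median and the mitochondrial genome (-0.39) to its left. All these list medians lie within the strip.

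Replication histone genes rose as a group. Of 50 tested, 44 were higher, 1 was lower and the median was 0.45. Their summed share of all counts went from 0.475% ± 0.014 (SD, n = 3) to 0.595% ± 0.018 (exact 2-sided permutation test of 3 against 3, p = 0.1, the smallest it can give). In the 24 h before, 45 of the 50 had fallen and none had risen, with a median of -0.68.

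H4C3 (ENSG00000197061.5, chr6:26103933-26104337) was at a mean of 169 CPM at 24 h, at 76.3, 70.5 and 73.5 CPM at 48 h and at 148, 138 and 144 CPM at 72 h. The 48 and 72 h values did not overlap, and the log2 change was 0.96 ± 0.04 (adjusted p = 6.4e-13). H2BC11 was at a mean of 161 CPM at 24 h, then at 81.8, 80.9 and 82.6 CPM and at 131, 125 and 129 CPM (0.65 ± 0.03). The families differed in size of change. Core histones H4 had a median of 0.61 (10 of 12 higher), H2A 0.48 (11 of 13), H3 0.42 (7 of 8) and H2B 0.38 (13 of 13). Linker histones H1 had a median of 0.15, with 3 of 4 higher. H1-5, at 593, 575 and 633 CPM and then 532, 523 and 564 CPM, was the member that fell (-0.15 ± 0.04, adjusted p = 0.0057). Its call was lost without set 2 at 48 h or without all libraries of the unnumbered set. Replication histone mRNAs have near-identical copies, so reads may be split among them.

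The CCAAT box was in 37 of 45 promoters of the histone list (82.2%). By family it was in 12 of 12 promoters of H2A, 13 of 13 of H2B, 6 of 6 of H3, 4 of 4 of H1 and 2 of 10 of H4, the family with the largest median change. Promoters of H2BC11, H2BC14 and H4C12 show the contrast, with CCAAT and ATTGG in capitals.
H2BC11 (chr6:27132796-27133045, minus strand): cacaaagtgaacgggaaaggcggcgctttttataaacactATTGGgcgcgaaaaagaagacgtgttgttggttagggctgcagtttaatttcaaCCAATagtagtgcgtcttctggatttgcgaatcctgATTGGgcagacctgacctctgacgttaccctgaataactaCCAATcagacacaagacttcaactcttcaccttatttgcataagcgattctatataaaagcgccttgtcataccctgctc
H2BC14 (chr6:27814772-27815021, plus strand): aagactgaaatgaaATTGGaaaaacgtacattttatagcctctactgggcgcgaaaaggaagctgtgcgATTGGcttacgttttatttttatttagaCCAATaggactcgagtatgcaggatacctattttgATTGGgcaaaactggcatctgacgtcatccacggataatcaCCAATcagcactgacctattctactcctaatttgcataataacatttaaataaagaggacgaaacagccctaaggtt
H4C12 (chr6:27831561-27831810, minus strand): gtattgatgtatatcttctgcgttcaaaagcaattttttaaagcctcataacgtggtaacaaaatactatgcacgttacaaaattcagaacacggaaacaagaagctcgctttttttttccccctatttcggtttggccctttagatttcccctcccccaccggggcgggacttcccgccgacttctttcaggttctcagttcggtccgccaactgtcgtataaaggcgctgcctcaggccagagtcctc
H2BC11 has 4 matches (log2 change 0.65), H2BC14 has 5 (0.37) and H4C12 has none (0.98, from 2.30, 2.61 and 2.62 CPM to 5.41, 4.47 and 5.08 CPM). These genes do not stand for their families, in which changes ran from 0.20 to 0.65 (H2B) and from 0.08 to 1.03 (H4). A link between matches and change was not tested.

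S phase genes went the other way. Of 47 tested, 26 were lower and 3 higher, with a median of -0.10, and the higher count was 0 or 1 on leaving out any 1 of the 6 libraries except set 2 at 72 h, where it was 2. MCM4, a subunit of the replicative helicase, was at 1011, 1015 and 1002 CPM at 48 h and at 831, 844 and 831 CPM at 72 h, with no overlap (-0.27 ± 0.01, adjusted p = 7.0e-12). CLSPN, the claspin of the replication checkpoint, and POLE, the leading strand polymerase, both fell by 0.31, and RRM2, a subunit of ribonucleotide reductase, by 0.22. Of 46 G2 and M phase genes 7 were higher and 11 lower (12 and 19 with library set as a block). These shares, 15.2% and 23.9%, were not far from the 21.8% and 20.2% of all genes of at least 10 CPM. The list median was -0.04. The higher count was 4 without set 2 at 48 h or without set 1 at 72 h, 1 without all libraries of set 1 (9 lower) and 3 without the unnumbered set (8 lower). CENPF of the kinetochore fell by 0.26, TACC3 of the spindle by 0.32 and the proliferation marker MKI67 by 0.18, while CDK1 rose by 0.13, a call lost without all libraries of the unnumbered set. CDKN1A, the p21 inhibitor of cyclin-dependent kinases, went from 19.6, 20.9 and 21.2 CPM to 40.0, 40.2 and 43.6 CPM (1.00 ± 0.05, adjusted p = 1.0e-12).

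Cytosolic ribosomal protein genes rose by a little: 65 of 76 were higher, 2 lower and the median was 0.14. RPL13A went from 2101, 2106 and 2144 CPM to 2509, 2484 and 2497 CPM (0.24 ± 0.02) and RPL4 from 2573, 2523 and 2586 to 3028, 2944 and 3043 CPM (0.23 ± 0.02). RPL36A fell by 0.44. From 24 to 48 h, 59 of the 76 had fallen. MYC targets had 17 of 38 lower and 2 higher (25 and 4 with library set as a block; 9 lower without all libraries of the unnumbered set), among them TFRC, the transferrin receptor (-0.36), and CAD of pyrimidine synthesis (-0.27). Across 10083 protein-coding genes at 1 CPM or more, the change had a Spearman rho of -0.21 with summed exon length, from a median of 0.14 for the 125 genes of up to 1000 bases to -0.03 for the 356 longer than 16000. Histone and ribosomal protein genes are short, and with the length trend removed 43 and 61 of them were still higher, with medians of 0.44 and 0.14.

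**Figure D3:**
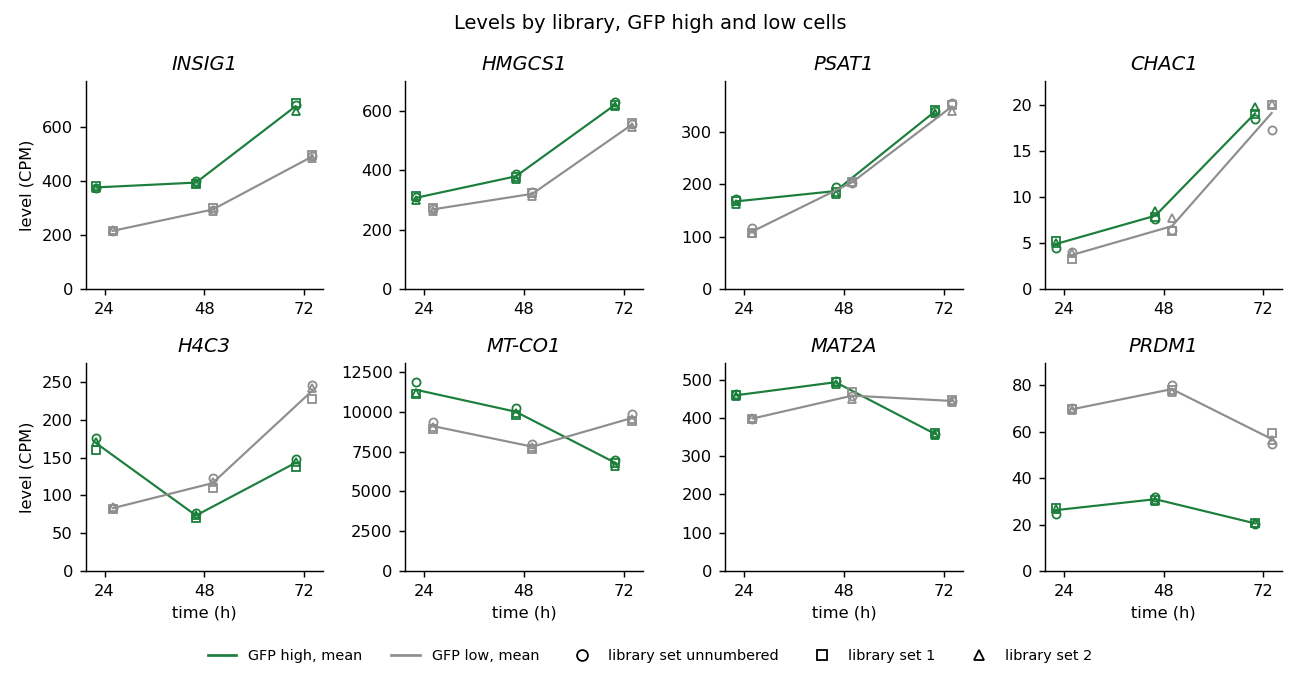
Levels (TMM-scaled CPM, linear axes from 0) of 8 genes in each library at 24, 48 and 72 h, in GFP high (green) and GFP low (grey) cells, with the marker shape giving the library set. From 48 to 72 h in GFP high cells INSIG1, HMGCS1, PSAT1, CHAC1 and H4C3 rise and MT-CO1, MAT2A and PRDM1 fall with no overlap, and MT-CO1 rises in GFP low cells (log2 change 0.30).

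Messenger RNAs of the mitochondrial genome fell in GFP high cells. Of the 13 protein-coding genes, 12 were lower and none higher, with a median of -0.39. In the 24 h before, in a comparison that shares the 48 h libraries, 12 of the 13 had fallen and 1 had risen. The median of that earlier change was -0.29. MT-CO1, the catalytic subunit of cytochrome oxidase (chrM:5904-7445), was at 10266, 9818 and 9966 CPM at 48 h and at 7006, 6769 and 6617 CPM at 72 h. All values at 72 h lay below all at 48 h, and the log2 change was -0.56 ± 0.03 (adjusted p = 8.6e-13). MT-ND1 of complex I fell by 0.51, MT-CO3 by 0.47 and MT-CO2 by 0.38. MT-ND6, the gene on the other strand from these, had values of 206, 178 and 190 CPM and then 188, 180 and 177 CPM, which overlapped, and was not called (-0.08 ± 0.05). With library set as a block all 13 genes were lower. The share of all counts from the mitochondrial genome was 3.69% ± 0.08 at 48 h and 2.71% ± 0.07 at 72 h (SD, n = 3, exact 2-sided permutation test, p = 0.1, the smallest possible). Of 41 nuclear genes of the respiratory chain 16 were higher and 2 lower (20 and 4 with library set as a block), and the median was 0.05. The higher count was 9 without set 2 at 48 h and 7 without all libraries of set 1 or of the unnumbered set.

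The fall differed from the change in GFP low cells over the same hours. There 12 of the 13 genes rose, with a median of 0.58, and the difference between the 2 changes was called for 12 of 13. For MT-CO2 the change was -0.38 in GFP high cells and 0.64 in GFP low cells, a difference of 1.02 ± 0.03 (adjusted p = 1.0e-16). For MT-CO1 the difference was 0.86 ± 0.04. At 72 h the mean level of MT-CO1 was 6797 ± 196 CPM in GFP high and 9627 CPM in GFP low cells, where at 48 h it had been 10017 ± 228 and 7818 CPM. The lowest GFP high library lay above the highest GFP low library at 48 h, and the reverse held at 72 h.

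The 2 ribosomal RNAs of the same genome did the opposite. They are outside the protein-coding rule for named genes and were singled out after their values were seen. MT-RNR1 (chrM:648-1601) had 2, 2 and 4 counts in the 48 h libraries and 275, 224 and 354 counts in the 72 h libraries. MT-RNR2 (chrM:1671-3229) had 11, 4 and 2 and then 462, 366 and 563 counts. Scaled to the library totals, the ratio of summed counts was 97.5 for MT-RNR1 (95% exact interval 49.3 to 227) and 74.8 for MT-RNR2 (46.6 to 129), intervals that cover counting error only. All 3 libraries of GFP high cells at 72 h stood apart, while GFP low cells at 72 h had 4, 7 and 3 counts of MT-RNR1 and GFP high cells at 24 h 18, 10 and 20. The difference between the changes in GFP low and high cells was -5.24 on the log2 scale for MT-RNR1 (adjusted p = 4.1e-04) and -5.61 for MT-RNR2 (adjusted p = 2.2e-05). The library kit named in the labels depletes ribosomal RNA. Its part in these counts was not tested. The 53 nuclear ribosomal RNA genes took 0.0318, 0.0297 and 0.035% of the counts at 48 h and 0.0226, 0.0272 and 0.0338% at 72 h, values that overlapped. At 72 h MT-RNR1 was at 8.40, 6.76 and 6.92 CPM.

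Other short or nuclear noncoding RNAs also moved. RN7SL1, the RNA of the signal recognition particle, was at 587, 783 and 860 CPM and then at 1656, 1312 and 1719 CPM (1.07 ± 0.13, adjusted p = 1.9e-06), after a change of -1.50 from 24 to 48 h. The Y RNA RNY1 (1.82) and the U4 small nuclear RNA gene RNU4-1 (1.86), likewise singled out afterwards, rose in GFP high cells, and their changes in GFP low cells were 2.14 and 1.79. MALAT1, a nuclear long noncoding RNA, fell from 3520, 3421 and 3353 CPM to 2567, 2539 and 2453 CPM (-0.45 ± 0.02). NEAT1, the scaffold of paraspeckles, fell by 0.22 in GFP high cells and rose by 1.00 in GFP low cells, a difference of 1.22 ± 0.03 (adjusted p = 1.05e-17).

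Immediate early genes, which answer growth and stress signals within minutes, had 11 of 21 higher, 1 lower and a median of 0.30. FOS (chr14:75278826-75282230) was at 1.84, 2.01 and 2.54 CPM and then at 5.71, 5.79 and 6.66 CPM, with no overlap, and had the largest rise of any protein-coding gene that met the naming rule (1.49 ± 0.14, adjusted p = 6.5e-08). EGR1 went from 10.9, 11.4 and 11.2 CPM to 22.8, 20.7 and 24.2 CPM (1.02 ± 0.06). DUSP1, a phosphatase of MAP kinases, rose by 0.74 and TSC22D3, a glucocorticoid and FOXO target, by 0.89. CHI3L2, a chitinase-like secreted protein, had the smallest p of all named genes: 318, 308 and 315 CPM at 48 h and 558, 546 and 552 CPM at 72 h (0.82 ± 0.02, adjusted p = 3.0e-17).

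Chemokines parted into 2 sets. The CCL3 and CCL4 genes, made by activated B cells to draw T cells, rose: CCL3L3 went from 99.1, 99.6 and 99.7 CPM to 180, 179 and 178 CPM (0.84 ± 0.02) and CCL4L2 from 44.5, 40.8 and 43.1 to 75.4, 74.6 and 75.5 CPM (0.81 ± 0.04). CCL4 rose by 0.69 and CCL3 by 0.60. These are near-identical copies, and 74.6% of the exon bases of CCL3 and 23.3% of those of CCL3L3 are shared with other annotated genes, so the split among copies is uncertain. CCL22, a ligand of CCR4, fell from 8.51, 8.16 and 8.05 CPM to 3.15, 3.20 and 4.10 CPM (-1.21 ± 0.08, adjusted p = 4.3e-10), and CCL5 fell by 0.90. In all, 7 of 15 genes of the list were higher and 2 lower (7 and 4 with library set as a block). From 24 to 48 h 11 of the 15 had fallen.

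Light zone and NF-kB genes included both rises and falls. Of 19 light zone genes 7 were higher and 3 lower (5 lower with the block), and of 28 NF-kB targets 11 were higher and 6 lower. In the 24 h before, 16 of the 19 light zone genes had fallen and none had risen. Over those earlier hours 18 of the 28 NF-kB targets had fallen and 3 had risen. CD83, a light zone surface marker, rose from 204, 201 and 204 CPM to 223, 225 and 225 CPM (0.14 ± 0.02), and the survival gene BCL2A1 by 0.53. TNFAIP3 (-0.40) and NFKBIZ (-0.46), feedback genes of NF-kB, fell. In GFP low cells CD83 changed by -0.39, and the difference of -0.54 ± 0.03 was called (adjusted p = 1.4e-11). In that test 11 of the 19 light zone genes had a negative difference and none a positive one, and for NF-kB targets 13 were negative and 2 positive. Across all genes 1486 (9.02%) had a called difference, 855 (5.19%) positive and 631 (3.83%) negative, and 3331 with library set as a block. Scaling by library totals in place of TMM left 551 of 1734 called differences positive (31.8% in place of 57.5%), with the median of all differences at -0.04.

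**Figure D4:**
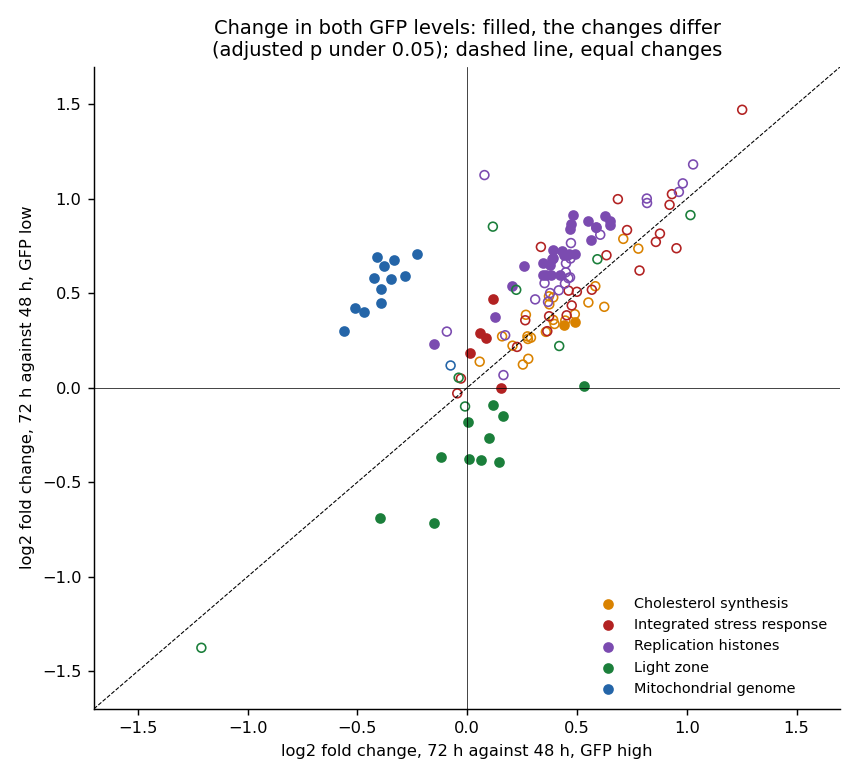
Log2 change from 48 to 72 h in GFP high cells (x axis) against that in GFP low cells (y axis) for genes of 5 lists, with filled points where the difference between the changes was called. Cholesterol and stress response genes lie near the diagonal (medians 0.38 and 0.35, 0.46 and 0.51), whereas mitochondrial genes lie to the upper left (-0.39 and 0.58).

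The lipid and stress programs were set beside GFP low cells, against the 9.02% of all genes with a called difference. In the cholesterol list the median was 0.38 beside 0.35 in GFP low cells, with 2 of 24 differences called, both negative, a share near that of all genes. One was FDFT1, with a difference of -0.14 ± 0.03. SCD rose more in GFP low cells (0.74 against 0.50, difference 0.24 ± 0.02, adjusted p = 1.3e-08). In the stress response list 4 differences of 27 were positive and 1 negative. For INSIG1 the difference was -0.04 ± 0.03 (adjusted p = 0.421) and for CHAC1 0.22 ± 0.12 (adjusted p = 0.291), which does not show that the changes were equal. Histones rose more in GFP low cells for 27 of 50 genes, with a median of 0.69 there.

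B cell surface and antigen presentation genes changed by little. Of 15 MHC class II genes, 10 were lower, 1 was higher and the median was -0.14. CIITA, the master activator of the class, fell from 216, 222 and 221 CPM to 183, 186 and 192 CPM (-0.23 ± 0.03, adjusted p = 1.5e-05), HLA-DQB1 by 0.32, HLA-DMB by 0.28 and CD74, the invariant chain, by 0.18. HLA-DRA was the higher member (0.04 ± 0.02, adjusted p = 0.0483), and its call was lost on leaving out any 1 of the 6 libraries. In GFP low cells all 15 fell, with a median of -0.25, and 5 differences were called. CD22, an inhibitory coreceptor, rose from 633, 631 and 652 CPM to 752, 755 and 771 CPM (0.25 ± 0.02), and PTPN6, the phosphatase it recruits, by 0.44. MS4A1 (CD20) fell by 0.15. LMO2, a germinal centre factor, rose by 0.59, whereas BCL6 (-0.03 ± 0.02) and PAX5 (-0.07 ± 0.03) were not called.

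PRDM1, which represses the B cell program on the way to plasma cells (chr6:105993463-106109939), was at 31.9, 30.5 and 30.3 CPM at 48 h and at 20.2, 20.5 and 20.8 CPM at 72 h. The groups did not overlap, and the log2 change was -0.59 ± 0.04 (adjusted p = 1.5e-09). Some other plasma cell genes went up: XBP1 rose by 0.19, CD38 by 0.35 and JCHAIN by 0.23. Of 15 genes of the list 7 were higher (46.7%) and 2 lower (13.3%). Of all genes 13.7% were higher and 14.2% lower, and of those of at least 10 CPM 21.8% and 20.2%. The list did not move as a whole: its median was -0.01, and by sign 7 went up and 8 down. The chemokine receptors CXCR4 (-0.29) and CCR7 (-0.78) both fell. CCR7 was at 5.16, 4.37 and 5.16 CPM and then at 2.90, 2.59 and 3.01 CPM.

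The largest falls were in genes of low level. AHNAK, a giant scaffold protein (chr11:62433542-62556235), was at 2.47, 2.46 and 2.50 CPM and then at 0.428, 0.513 and 0.586 CPM, a log2 change of -2.25 ± 0.19 (adjusted p = 1.7e-08). BHLHE40, a clock-linked repressor, went from 3.14, 3.48 and 3.27 CPM to 1.07, 1.03 and 1.02 CPM (-1.67 ± 0.12). FCRL4 (-1.62) and FCRL2 (-1.44), Fc receptor-like proteins of B cells, fell together, FCRL4 from 2.40, 2.01 and 3.25 CPM to 0.977, 0.996 and 0.645 CPM. In each of these 4 genes all libraries at 72 h lay below all at 48 h.

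Among genes of at least 50 CPM, ARRDC3, an arrestin-like protein, fell from 74.5, 70.2 and 69.9 CPM to 42.5, 40.4 and 40.8 CPM (-0.79 ± 0.04) and SGK1, a kinase downstream of PI3K, by 0.51. MAT2A, which makes S-adenosylmethionine (chr2:85539168-85545281), went from 497, 494 and 489 CPM to 359, 359 and 356 CPM (-0.46 ± 0.02, adjusted p = 3.3e-14), while in GFP low cells its change was -0.04. That difference, 0.42 ± 0.02, was called (adjusted p = 1.3e-10). Differences were also called for PNN (0.57) and LENG8 (0.56), proteins tied to splicing and mRNA export, which fell by 0.46 and 0.58 in GFP high cells. FTH1, the ferritin heavy chain, fell by 0.34, with 63.2% of its exon bases shared with other genes.

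The degron target itself changed little at the mRNA level, which does not measure the protein. SMARCA4 (chr19:10960932-11079426) was at 440, 440 and 457 CPM at 48 h and at 406, 405 and 423 CPM at 72 h, without overlap, a log2 change of -0.12 ± 0.03 (adjusted p = 0.0055). This call was lost with the exon length trend removed (-0.08, adjusted p = 0.069) and without all libraries of set 1 or of the unnumbered set (adjusted p = 0.062 and 0.070). SMARCA2, the other ATPase, was at 46.3, 44.8 and 44.8 CPM and at 46.3, 47.1 and 46.8 CPM (0.05 ± 0.03, adjusted p = 0.311).

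Of 28 BAF subunits tested 5 were higher and 7 lower (12 lower with library set as a block), a share of 17.9% and 25.0% beside 21.8% and 20.2% of all genes of at least 10 CPM. The 5 higher became 3 without set 1 at 48 h, without set 2 at 72 h or without the unnumbered library of either time. Without all libraries of set 1 there was 1, and without the unnumbered set 2 were higher and 4 lower. ARID1A, the large subunit of canonical BAF, went from 348, 351 and 364 CPM to 318, 320 and 329 CPM (-0.14 ± 0.03), SMARCD1 fell by 0.17 and SMARCE1 by 0.27. BCL7A, a subunit often mutated in lymphoma, rose from 172, 165 and 176 CPM to 190, 190 and 197 CPM (0.17 ± 0.03), and DPF1 rose by 0.40, a call lost without all libraries of set 1. ACTB, shared by BAF and the cytoskeleton, fell by 0.13 and was not called with library set as a block (adjusted p = 0.254).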

How the data were processed

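RNA-seq libraries of Raji cells were read from 1 deposited table of raw counts per gene over 18 libraries, which the authors made with STAR, featureCounts (Subread) and R 4.2.1 on hg38, per the submitters' processing notes; the role, order and strand setting of these tools were not stated. Libraries were made from total RNA with ribosomal RNA depletion, per the labels' protocols. Column names matched groups by time and GFP level, and carry a library set (unnumbered, 1 or 2) but no link to a single labelled sample. Of 60707 genes read, the entry of ANK2 was broken over 3 lines and left out.

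Genes were filtered with filterByExpr and normalized by TMM, and 16474 were tested with edgeR 4.0.16 (limma 3.58.1, R 4.3.3) by the quasi-likelihood test on 6 group means, 2-sided. P-values were adjusted by Benjamini-Hochberg over all genes and called at 0.05. The SE of a log2 change was its size divided by the square root of F. A positive difference between GFP levels means a higher change in GFP low cells. CPM values were TMM-scaled unless stated. The biological coefficient of variation was 3.49%, and replicate pairs exceeded sampling noise (chi-square 1.50 to 2.47 times its expectation). On simulated counts of this comparison with 16039 genes, the fit recovered 62.0% of genes raised 1.25-fold, 57.1% of those raised 1.5-fold, 92.0% of those raised 2-fold and 80.0% of those lowered to 0.5 of their level, with 5.84% false calls. Each recovery rests on 49 or 50 genes. The simulated counts had the same spread for every gene and no library set effect, and only these few genes changed. These rates therefore need not hold for the real counts.

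Library sets paired the libraries: over 8536 genes, deviations of same-set libraries from their group mean had correlations of 0.344 to 0.661 in all 45 pairs (0.354 to 0.594 for the 3 pairs of GFP high cells at 48 and 72 h). Different sets correlated at -0.433 to 0.0795. Deviations from a group mean cancel within the group, so positive same-set values by themselves push the values between sets down. The pairing comes from the column names and the same-set correlations, and the main test has no block.

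Genes were named by rule: among called protein-coding genes averaging 1 CPM or more, with no overlap between the times, the 15 largest changes in each direction, the 10 largest at 50 CPM or more and the 5 smallest adjusted p, then in each of 43 lists up to 4 called members in each direction and the largest change, all BAF subunits, and the 8 largest differences between GFP levels in each direction. Further list members are named for their role with their values known. The comparison and the lists were chosen with earlier results of these data known. Promoter windows are RefSeq sequence of GRCh38.p14. Alternatives were DESeq2 1.42.0, other scalings and filters, the block, removal of the exon length trend and leaving out each library or set. Some genes that the rule names are not reported here.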

Additional observations from a re-analysis of the deposited data

Results flagged for a closer look

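The changes from 48 to 72 h differed between GFP low and GFP high cells in the interaction test for genes named by the rule on the largest differences (edgeR's quasi-likelihood test, Benjamini-Hochberg adjustment). Negative values mean a lower change in GFP low cells. TTN, the giant sarcomere protein, had a difference of -1.21 (adjusted p = 1.3e-11): it was at 38.7, 37.3 and 36.6 CPM and then at 39.4, 43.2 and 37.1 CPM in GFP high cells, while its mean in GFP low cells went from 63.9 to 29.2 CPM. SLAMF7, a receptor of plasma and cytotoxic cells, had a difference of -0.95 (adjusted p = 1.9e-06), with GFP high values of 13.1, 12.1 and 13.8 CPM and then 12.4, 12.1 and 11.4 CPM, and a GFP low mean that went from 13.1 to 6.15 CPM. ALPK2 had a difference of -1.02, the adhesion molecule VCAM1 of -0.95, the gasdermin GSDME of -0.94, the taste receptor TAS2R43 of -0.91 and the actin-capping CAPG of -0.84. These 5 calls were lost in 2 to 14 of the alternative analyses.

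On the positive side stood the transcription factor SCRT1 (0.96, lost in 11 alternatives) and 7 genes of the mitochondrial genome, namely MT-ATP6 (1.11), MT-CO2 (1.02), MT-ATP8 (1.01), MT-ND2 (1.00), MT-ND4L (0.94), MT-ND1 (0.93) and MT-ND4 (0.92). In all, 12 of 13 protein-coding mitochondrial genes had a called difference. Counts of MT-RNR1 and MT-RNR2 moved the other way in the same libraries, and what part ribosomal RNA depletion has in these values was not tested.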

How the results depend on the processing

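Of 5405 alternative values of the 282 named gene results, 5073 kept direction and side of the threshold, 316 lost the call, 16 gained it and none reversed. Of 1444 alternative list counts, 187 moved by over 1.5 times. The 4587 genes called fell to 2725 without all libraries of set 1 (1326 higher, 1399 lower) and to 2626 without those of the unnumbered set (1249 higher, 1377 lower). With library set as a block in the 6 GFP high libraries, 3410 were higher. With the block in all 18 libraries 6464 genes were called, 3297 of them higher. Beside the counts of lists given with the block above, it raised the lower calls of BCR signalling from 5 to 9, of B cell transcription factors from 4 to 9 and of MHC class I from 3 to 5. The 1486 called differences between GFP levels became 3331 with the block, 458 without set 1 and 378 without the unnumbered set. Leaving out 1 library gave 3628 to 4094 calls and 1120 to 1451 differences. DESeq2 called 4047 genes and 1331 differences. MYC targets had 9 lower genes without the unnumbered set. The SMARCA4 change was -0.080 with the length trend removed (adjusted p = 0.0687), -0.11 without set 1 (adjusted p = 0.0621) and -0.12 without the unnumbered set (adjusted p = 0.0696), and the cause was not tested. Depth limits the mitochondrial ribosomal RNAs, with 2 to 11 counts a library at 48 h.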

Other observations

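Several other gene groups changed in GFP high cells between 48 and 72 h. Their counts stand beside 13.7% higher and 14.2% lower of all genes. Among genes of at least 10 CPM these shares were 21.8% and 20.2%. Of 15 genes of the BCL2 family 7 were higher and none lower: the pro-survival BCL2L1 went from 287 ± 10.5 (SD, n = 3) to 323 ± 8.4 CPM (log2 change 0.17 ± 0.03 SE) and MCL1 rose by 0.09 (a call lost without all libraries of set 1), while the death-promoting BMF rose by 0.33, PMAIP1 by 0.16 and BBC3 by 0.38. Heat shock genes had 7 of 15 lower and none higher (10 lower with library set as a block). The chaperone HSP90AA1 went from 3559 ± 78 to 3207 ± 61 CPM (-0.15 ± 0.02) and the inducible HSPA1B from 64.8 ± 1.0 to 54.1 ± 2.5 CPM (-0.26 ± 0.04). SLC7A11, the cystine carrier, rose from 115 ± 1.3 to 162 ± 5.9 CPM (0.50 ± 0.03).

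Hosts of small nucleolar RNAs were compared between GFP levels. In GFP high cells 5 of 15 were higher (3 without all libraries of set 1) and 6 lower, shares of 33.3% and 40%. For 9 of the 15 the change in GFP low cells was higher in the interaction test and for none lower. Among all genes 5.19% had a higher and 3.83% a lower change there. SNHG1 fell from 215 ± 8.0 to 177 ± 3.7 CPM in GFP high cells (-0.28 ± 0.03), and its change in GFP low cells was 0.36, a difference of 0.64 (adjusted p = 6.4e-10 in edgeR's quasi-likelihood test). For SNHG15 the changes were -0.17 and 0.39. Of 20 nuclear genes for mitochondrial transcription and import, 2 were higher and 4 lower (7 and 6 with library set as a block). These shares, 10% and 20%, stood beside 13.7% and 14.2% of all genes and 21.8% and 20.2% of those of at least 10 CPM. The list median was 0.05. That list also holds genes that copy mitochondrial DNA. Of these the DNA polymerase POLG fell by 0.29 and the helicase TWNK by 0.22, whereas TOMM20 of the import channel rose by 0.19.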
